A study of Mus musculus with 52 samples.

Results

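Dmp1, Mepe, Phex, Phospho1, Enpp1 and Pdpn are 6 genes of osteocytes and of the control of bone mineral. They were chosen by name, and each was to be read from a probe set annotated to its symbol alone, the one with the highest mean where a gene had several. Of the 6 listed genes, 4 had such a probe set (Dmp1, Mepe, Phex and Pdpn), among 22180 genes so measured in the series, and all 4 passed the filter on low values, as did 14911 genes in all. The only probe set of Phospho1 is shared with Zfp652, and Enpp1 was not analysed here.

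Bone mineral is laid down by osteoblasts, and some of these cells become buried in the matrix as osteocytes. DMP1 and MEPE are acidic, phosphorylated matrix proteins of the SIBLING family: DMP1 promotes orderly mineralisation, and the ASARM peptide released from MEPE inhibits it. PHEX is a peptidase of the osteoblast and osteocyte surface that cleaves ASARM peptides. Loss of DMP1 or PHEX raises the phosphate-wasting hormone FGF23. PHOSPHO1 releases phosphate inside matrix vesicles, whereas ENPP1 makes pyrophosphate, an inhibitor of mineral that alkaline phosphatase breaks down. Podoplanin (Pdpn, also called E11 or gp38) is a membrane glycoprotein needed for the dendrites of young osteocytes, and it is also made by fibroblastic stromal cells and lymphatic endothelium.

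The study hybridised RNA of primary bone marrow stromal cell cultures to 52 arrays (Affymetrix Mouse Gene 2.0 ST), which fall into 13 groups of 4. All cultures came from marrow of the femur, tibia and humerus of female C57BL/6J mice aged 8 weeks. Per the labels, marrow of 2 to 4 mice was pooled for an experiment, and each group holds 1 array of each of the pools numbered 12, 15, 19 and 20, so that 4 pools are the replicates. Naive cells were taken 7 days after plating, before the medium was changed. All other groups then received osteoinductive medium with dexamethasone (10 nM), β-glycerol phosphate (8 mM), ascorbate (12.5 µg/ml) and insulin. They were harvested 1 or 4 days later with Rosi (rosiglitazone, 100 nM), an agonist of the fat cell receptor PPARγ, LG268 (LG100268, 100 nM), an agonist of its partner RXR, TBT (80 nM), an organotin, TPhP, an organophosphate ester, MEHP, a phthalate monoester, or vehicle (DMSO, 0.1%). The labels give no dose for TPhP or MEHP. Vehicle against naive cells therefore joins medium, DMSO and time in culture, which cannot be told apart. Cultures were not sorted: in bulk RNA, fewer cells of a type and less RNA per cell cannot be told apart.

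The 250 bases before each start site of the 4 measured genes are shown. Phex and Pdpn, both measured above background on most arrays, differed in their order over the groups, and Dmp1 and Mepe lie near each other in the genome. Sequences are RefSeq's, build GRCm38.p6, written 5′ to 3′ along the gene's strand. Capitals mark exact matches, on either strand, to TGTGGT (bound by RUNX factors, ACCACA when read from the other strand), AGGTCA (the core hexamer that nuclear receptors bind), TGTTCT (the core hexamer of the glucocorticoid receptor) and TATAAA (the TATA box, TTTATA from the other strand).
Dmp1, chr5:104197325-104197574, plus strand: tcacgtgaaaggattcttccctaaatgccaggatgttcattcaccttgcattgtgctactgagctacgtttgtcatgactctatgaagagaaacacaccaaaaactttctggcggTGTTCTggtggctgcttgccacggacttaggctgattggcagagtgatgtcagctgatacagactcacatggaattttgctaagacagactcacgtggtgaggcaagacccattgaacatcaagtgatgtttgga
Dmp1, chr5:104202367-104202616, plus strand: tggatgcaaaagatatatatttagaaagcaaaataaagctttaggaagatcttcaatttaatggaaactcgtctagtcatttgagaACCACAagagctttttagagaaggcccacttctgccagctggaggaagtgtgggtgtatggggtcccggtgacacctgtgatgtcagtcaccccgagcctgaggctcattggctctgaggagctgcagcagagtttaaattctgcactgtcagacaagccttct
Mepe, chr5:104325079-104325328, plus strand: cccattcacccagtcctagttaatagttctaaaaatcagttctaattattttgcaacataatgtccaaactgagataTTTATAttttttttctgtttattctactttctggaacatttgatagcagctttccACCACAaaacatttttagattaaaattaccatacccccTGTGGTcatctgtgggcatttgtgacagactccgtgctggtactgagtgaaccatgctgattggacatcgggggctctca
Phex, chrX:157415287-157415536, minus strand: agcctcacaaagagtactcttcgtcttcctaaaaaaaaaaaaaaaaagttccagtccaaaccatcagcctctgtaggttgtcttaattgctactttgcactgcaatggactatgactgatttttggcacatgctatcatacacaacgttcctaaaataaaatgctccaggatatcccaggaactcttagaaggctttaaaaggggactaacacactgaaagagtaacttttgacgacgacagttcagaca
Pdpn, chr4:143299565-143299814, minus strand: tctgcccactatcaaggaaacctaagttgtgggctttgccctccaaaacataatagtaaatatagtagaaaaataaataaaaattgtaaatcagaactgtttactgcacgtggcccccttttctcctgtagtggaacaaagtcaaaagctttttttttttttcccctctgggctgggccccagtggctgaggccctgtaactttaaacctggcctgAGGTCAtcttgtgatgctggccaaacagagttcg

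One start site of Dmp1 has TGTTCT beginning 135 bases before it, and the other has ACCACA beginning 164 bases before it. The Mepe window holds TGTGGT at 80 bases, ACCACA at 118 bases and TTTATA at 173 bases before the start. The Pdpn window holds AGGTCA at 34 bases before the start, and in the Phex window none of these letters was found. Such matches are common: of 32851 RefSeq windows of the same length, 14% held TGTGGT, 14% held AGGTCA, 16.1% held TGTTCT and 12.4% held TATAAA. They are a description of sequence, and binding was not measured. Dmp1 and Mepe lie near each other on chromosome 5, where the order of protein-coding genes is Dspp, Dmp1, Ibsp, Mepe and Spp1.

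Values are log2 of probe set brightness as deposited. They are compared within a gene, never between genes. No detection call was available, so a value under 4.05, the median of the whole table, is called near background. Above it lay 36 of 52 arrays for Dmp1, 9 for Mepe, 44 for Phex and 52 for Pdpn. Differences were tested with limma over all arrays, two-sided, and a gene is called where its Benjamini-Hochberg adjusted p over the 14911 genes was under 0.05. Because a pool gave 1 array to every group, a second fit with the pool as a replicate block is given where it changes a call. Where n = 4 follows a mean, the SD is over pools.

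Some day 4 arrays agreed less than others with their groups over all tested genes. The mean correlation of an array with the others of its group was 0.956 to 0.991 at day 4, against 0.979 to 0.990 at day 1 and 0.982 to 0.987 in naive cells. The 3 lowest were pool 15 with Rosi (0.956), pool 12 with vehicle (0.957) and pool 12 with TPhP (0.963). Pool 12 with MEHP came close behind (0.965) and was not left out singly. In pool 12, day 4 vehicle had a mean of 6.54 over osteoblast regulators, where the other vehicle arrays had 7.44 to 7.74, and a mean of 7.64 over adipocyte markers, where the others had 8.56 to 9.24. Results that rest on the 3 lowest arrays are therefore also given without them, as alternatives chosen after seeing the data.

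**Figure D1:**
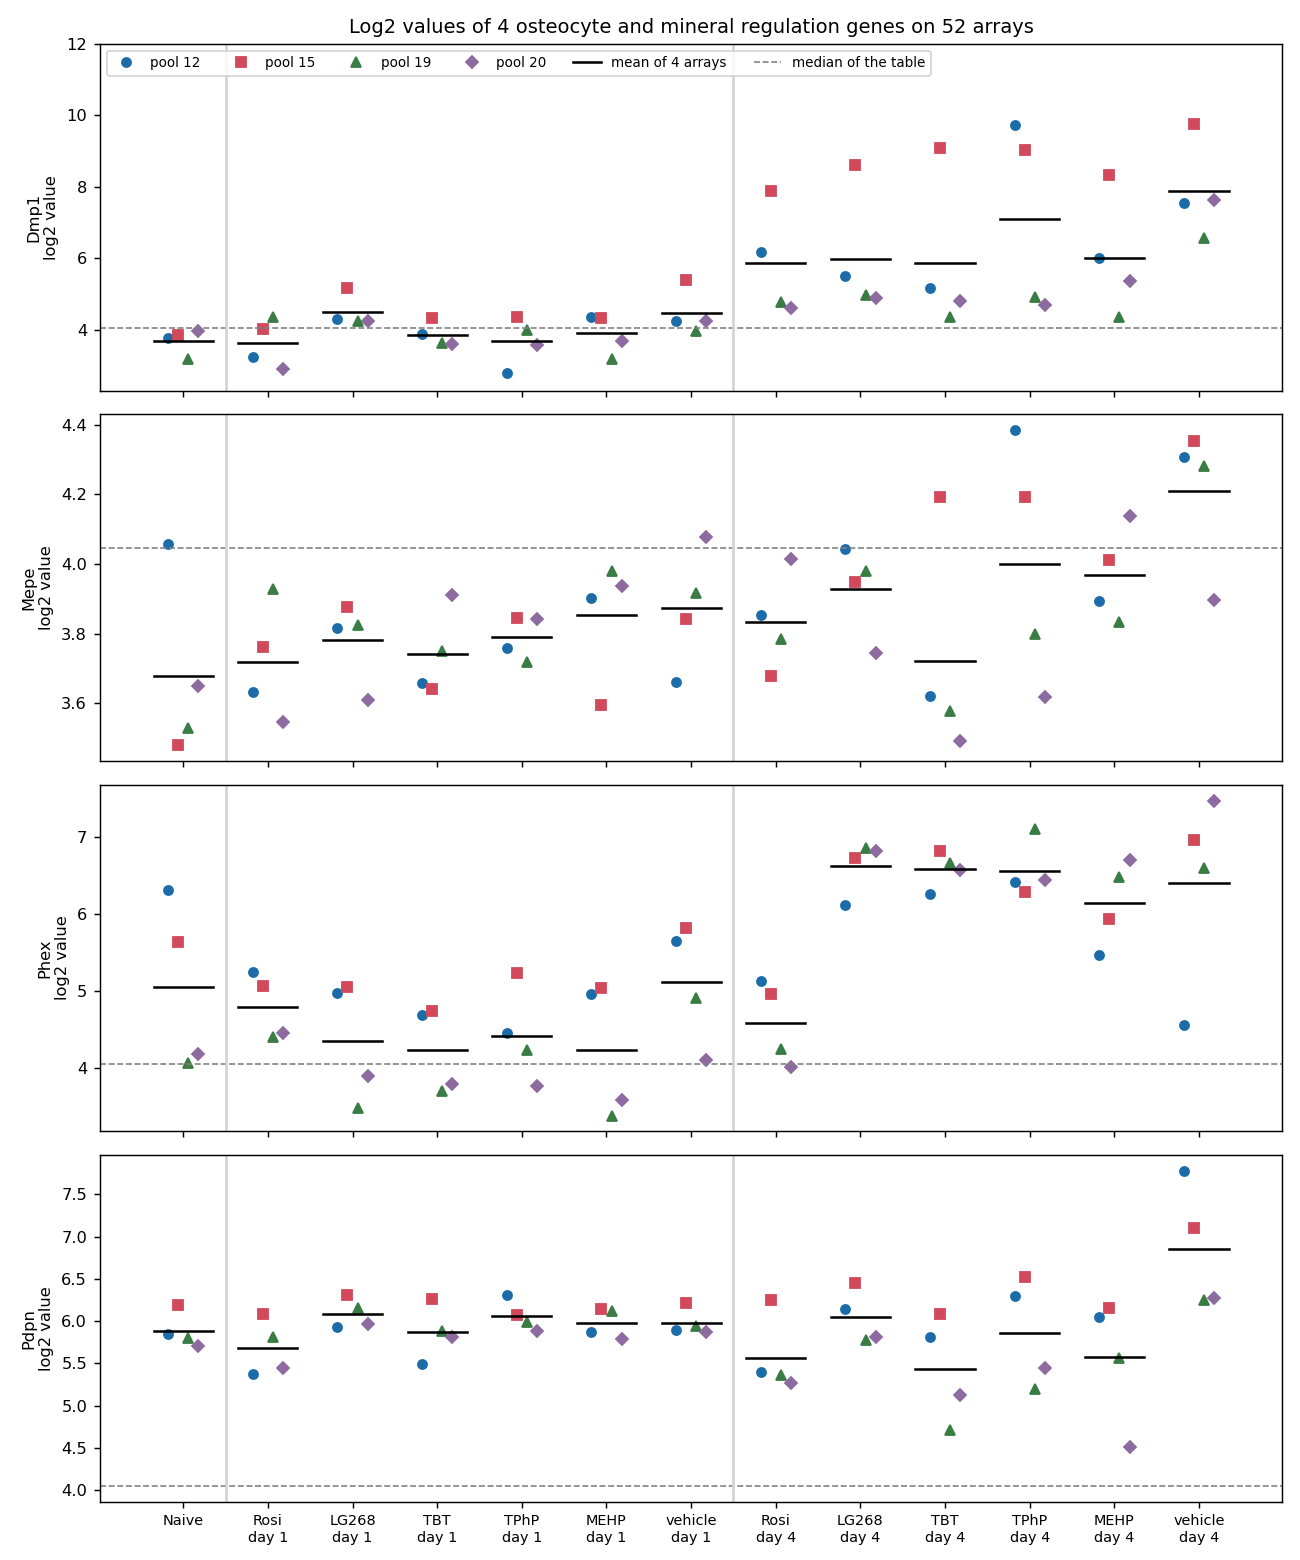
Log2 values of Dmp1, Mepe, Phex and Pdpn on each of 52 arrays (y axis, 1 panel per gene) by group (x axis: naive cells, then day 1 and day 4 with the chemicals left of vehicle). Symbols mark the pools, short bars the mean of 4 arrays and the dashed line the table median of 4.05. Dmp1 had its highest values at day 4, Mepe stayed close to the line throughout, the day 4 group mean of Phex was lowest with Rosi, and the mean of Pdpn was highest in day 4 vehicle.

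With vehicle, Dmp1 was near background in naive cells and came up between day 1 and day 4. Its log2 values were 3.76, 3.84, 3.17 and 3.96 in naive cells (pools 12, 15, 19 and 20), 4.25, 5.40, 3.98 and 4.24 at day 1 and 7.54, 9.76, 6.57 and 7.65 at day 4. Every day 4 array lay above every earlier vehicle or naive array; for 13.1% of tested genes all day 4 vehicle arrays exceeded all naive ones, and for 7.09% all day 1 ones. At day 4 the mean was 7.88 ± 1.34, against 3.68 ± 0.35 in naive cells (SD, n = 4 each), a log2 difference of 4.20 ± 0.92 (SE), or 18.3-fold, with a 95% interval of 2.34 to 6.06 (limma adjusted p = 0.000519). Since the naive arrays lie under 4.05, this fold is uncertain. Against day 1 vehicle (4.47 ± 0.63) the difference was 3.41 ± 0.92, or 10.7-fold (adjusted p = 0.0101). That call ended without pool 12 (adjusted p = 0.0537) and without pool 20 (adjusted p = 0.0716). Day 1 vehicle was 0.78 above naive cells without passing the test (adjusted p = 0.632). The arrays of these groups did not overlap either, as was so for 15.1% of tested genes in that direction.

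Mepe stayed near background. Its values in day 4 vehicle were 4.31, 4.35, 4.28 and 3.90, against 4.06, 3.48, 3.53 and 3.65 in naive cells, and these groups overlap. The mean was 4.21 ± 0.21 in day 4 vehicle and 3.68 ± 0.26 in naive cells, a difference of 0.53 ± 0.14 or 1.45-fold (adjusted p = 0.00316, but 0.0772 without pool 19 and 0.0514 with only the arrays compared). Of the 9 Mepe values over 4.05, 3 were in day 4 vehicle and 2 in day 4 TPhP. At these levels an array reads mostly background, so the size of a Mepe change is uncertain.

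Phex lay above the table median on 4 of 4 naive arrays, 2 of them close to it. Its naive values were 6.32, 5.64, 4.06 and 4.18, and at day 1 with vehicle they were 5.65, 5.82, 4.91 and 4.11. At day 4 the vehicle arrays stood at 4.56, 6.97, 6.60 and 7.48, so that pool 12 was low and the other 3 high. Day 4 vehicle averaged 6.40 ± 1.28 and naive cells 5.05 ± 1.11, a difference of 1.35 ± 0.49 or 2.55-fold (adjusted p = 0.0317), with higher values in 3 of 4 pools. Pool 12 alone moved the other way, by -1.76. Without that vehicle array the difference was 1.96 (adjusted p = 0.00129). With only the arrays compared the adjusted p was 0.21, and leaving out a whole pool other than pool 12 ended the call: the difference was 1.36 without pool 15 (adjusted p = 0.0931), 0.96 without pool 19 (adjusted p = 0.287) and 0.70 without pool 20 (adjusted p = 0.423). Against day 1 vehicle it was 1.28 ± 0.49 (adjusted p = 0.0753, or 0.045 with the replicate block). Leaving that array out gave 1.89 (adjusted p = 0.00687).

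Pdpn lay above the table median on every array, with a lowest value of 4.51 (day 4 MEHP, pool 20). Day 4 vehicle gave 7.78, 7.11, 6.24 and 6.27, against 5.84, 6.19, 5.80 and 5.71 in naive cells, again without overlap. The mean was 6.85 ± 0.74 in day 4 vehicle and 5.89 ± 0.21 in naive cells, a difference of 0.96 ± 0.31 or 1.95-fold (adjusted p = 0.0145). The 2 highest arrays were those of pools 12 and 15, and without the pool 12 vehicle array the difference was 0.65 (adjusted p = 0.109). Against day 1 vehicle (5.98 ± 0.16) the difference was 0.87 ± 0.31 (adjusted p = 0.0516, or 0.00664 with the replicate block). It was 0.56 (adjusted p = 0.288) without the pool 12 vehicle array of day 4.

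All 4 measured genes were thus higher in day 4 vehicle than in naive cells, where 28.9% of tested genes were called and 17.4% were called higher. Their median difference was 1.16, against 0.05 over all tested genes. In a fit of only the arrays of these groups Dmp1 alone was called, with adjusted p = 0.0514 for Mepe, 0.0732 for Pdpn and 0.21 for Phex. Between day 1 and day 4 of vehicle 1 of 4 was called, or 3 with the replicate block, against 12.9% and 17.5% of tested genes. Between day 1 vehicle and naive cells none of the 4 was called, against 17.7% of tested genes.

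At day 1 none of the 4 genes was called with any chemical, with or without the replicate block. The share of tested genes called was 7.25% with Rosi, 0.241% with LG268, 0.543% with TBT, 0.215% with TPhP and 0.523% with MEHP. With the block these shares were 9.19%, 0.456%, 1.15%, 0.476% and 1.18% in the same order of chemicals. The widest day 1 differences of Phex were -0.89 with TBT (95% interval -1.87 to 0.09) and -0.88 with MEHP. Phex was lower than vehicle in 4 of 4 pools with LG268, TBT, TPhP and MEHP and in 3 of 4 with Rosi. Dmp1 group means at day 1 were near background with Rosi (3.63), TPhP (3.68), TBT (3.86) and MEHP (3.90), and 4.48 with LG268.

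With Rosi at day 4, Pdpn, Phex and Mepe were lower than with vehicle, in a comparison that called 49.1% of tested genes. Pdpn had 5.40, 6.25, 5.36 and 5.26 with Rosi, against 7.78, 7.11, 6.24 and 6.27 with vehicle. It was lower in 4 of 4 pools, and only the Rosi array of pool 15 reached the vehicle range. Pdpn averaged 5.57 ± 0.46 with Rosi and 6.85 ± 0.74 with vehicle, a difference of -1.28 ± 0.31 or 2.43-fold lower (adjusted p = 0.000468). Without the pool 12 vehicle array the difference was -0.97 (adjusted p = 0.00799).

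Phex had 5.13, 4.97, 4.24 and 4.01 with Rosi, against 4.56, 6.97, 6.60 and 7.48 with vehicle. In pools 15, 19 and 20 the Rosi array was far below its vehicle array, and in pool 12 it was 0.57 above it. Means were 4.59 ± 0.55 with Rosi and 6.40 ± 1.28 with vehicle, a difference of -1.81 ± 0.49 or 3.52-fold lower (adjusted p = 0.00169). Without the pool 12 vehicle array it was -2.43, and without pool 20 it was -1.26 (adjusted p = 0.0693).

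Dmp1 had 6.18, 7.88, 4.78 and 4.60 with Rosi, against 7.54, 9.76, 6.57 and 7.65 with vehicle. Each Rosi array was lower than the vehicle array of its pool, although the groups overlap. The difference was -2.02 ± 0.92 (adjusted p = 0.0662), and the replicate block gave adjusted p = 0.00976. Without the Rosi array of pool 15 it was -2.69 (adjusted p = 0.0177). Mepe fell by 0.38 ± 0.14 on the log2 scale (3.83 ± 0.14 with Rosi and 4.21 ± 0.21 with vehicle, adjusted p = 0.0218). That call ended without the pool 12 vehicle array (adjusted p = 0.0579), the pool 15 Rosi array (adjusted p = 0.0666), or the whole of pool 12 (0.0693), 15 (0.141) or 19 (0.137). Thus 3 of 4 genes were called lower, or 4 with the block, where 27.7% and 30.2% of tested genes were. The median of the 4 differences was -1.55, against -0.05 over all tested genes.

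LG268, at the same molar dose as Rosi, gave no call among the 4 genes at day 4, where 6.47% of tested genes were called. Dmp1 had 5.50, 8.63, 4.97 and 4.89 with LG268, lower than its vehicle array in 4 of 4 pools. Its difference was -1.88 ± 0.92, with a 95% interval of -3.74 to -0.03 (adjusted p = 0.235). Pdpn, with 6.15, 6.45, 5.78 and 5.81, was also lower in 4 of 4 pools, by -0.80 ± 0.31 (adjusted p = 0.108). It was called with the replicate block (adjusted p = 0.0197), with which 10.7% of tested genes were. Phex had 6.12, 6.74, 6.86 and 6.82, a difference of 0.23 with a 95% interval of -0.75 to 1.21, and Mepe differed by -0.28.

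With TBT at day 4, Pdpn and Mepe were lower than with vehicle. Pdpn had 5.81, 6.08, 4.71 and 5.12 with TBT, all below the lowest vehicle array of 6.24, as for 9.23% of tested genes. The difference was -1.42 ± 0.31 or 2.68-fold lower (5.43 ± 0.63 with TBT and 6.85 ± 0.74 with vehicle, adjusted p = 0.000691). This Pdpn call ended with only the arrays compared (adjusted p = 0.056). Mepe, at 3.62, 4.19, 3.58 and 3.49, was lower in 4 of 4 pools by -0.49 ± 0.14 (adjusted p = 0.00967). That call ended without pool 12 (adjusted p = 0.0559), without pool 19 (adjusted p = 0.139) and with only the arrays compared (adjusted p = 0.0995). Dmp1 had 5.16, 9.09, 4.37 and 4.81 with TBT. It was lower in 4 of 4 pools, with a wide gap between pool 15 and the rest (-2.02 ± 0.92, adjusted p = 0.118, or 0.0218 with the replicate block). Phex, at 6.26, 6.83, 6.67 and 6.58, differed by 0.18 (95% interval -0.80 to 1.16). In all 2 of 4 genes were called, or 3 with the block, where 20.1% and 25.2% of tested genes were.

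With TPhP at day 4 only Pdpn of the 4 genes was called, where 18.9% of tested genes were. Its values were 6.29, 6.52, 5.20 and 5.44 with TPhP, lower than vehicle in 4 of 4 pools, with overlap in pools 12 and 15. The difference was -0.99 ± 0.31 or 1.98-fold lower (5.86 ± 0.64 with TPhP and 6.85 ± 0.74 with vehicle, adjusted p = 0.0177). Without the pool 12 vehicle array it was -0.68 (adjusted p = 0.13), and the call also ended without pool 12 (adjusted p = 0.0981), 19 (0.116) or 20 (0.0582). With only the arrays compared the adjusted p was 0.217. Dmp1 had 9.73, 9.04, 4.92 and 4.68 with TPhP. In pool 12 this was 2.19 above the vehicle array, and in the other 3 pools it was below it. The difference was -0.79 ± 0.92, and -1.67 (adjusted p = 0.226) without the pool 12 TPhP array. That array also had the highest mean over osteoblast regulators in its group, 7.37 against 6.13 to 6.59 in the others, and whether this bears on Dmp1 was not tested. Phex had 6.42, 6.28, 7.11 and 6.44, a difference of 0.16, and Mepe differed by -0.21.

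With MEHP at day 4 Pdpn was again the gene called, where 23.8% of tested genes were. Its values of 6.05, 6.16, 5.56 and 4.51 all lay below the vehicle arrays, as for 6.68% of tested genes. The difference was -1.28 ± 0.31 or 2.43-fold lower (5.57 ± 0.76 with MEHP and 6.85 ± 0.74 with vehicle, adjusted p = 0.00144). This call ended with only the arrays compared (adjusted p = 0.119). Dmp1, at 6.02, 8.34, 4.37 and 5.37, was lower in 4 of 4 pools by -1.86 ± 0.92 (adjusted p = 0.148, or 0.0319 with the replicate block, where 28.4% of tested genes were called). Phex had 5.47, 5.94, 6.48 and 6.70 (difference -0.25), and Mepe differed by -0.24.

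**Figure D2:**
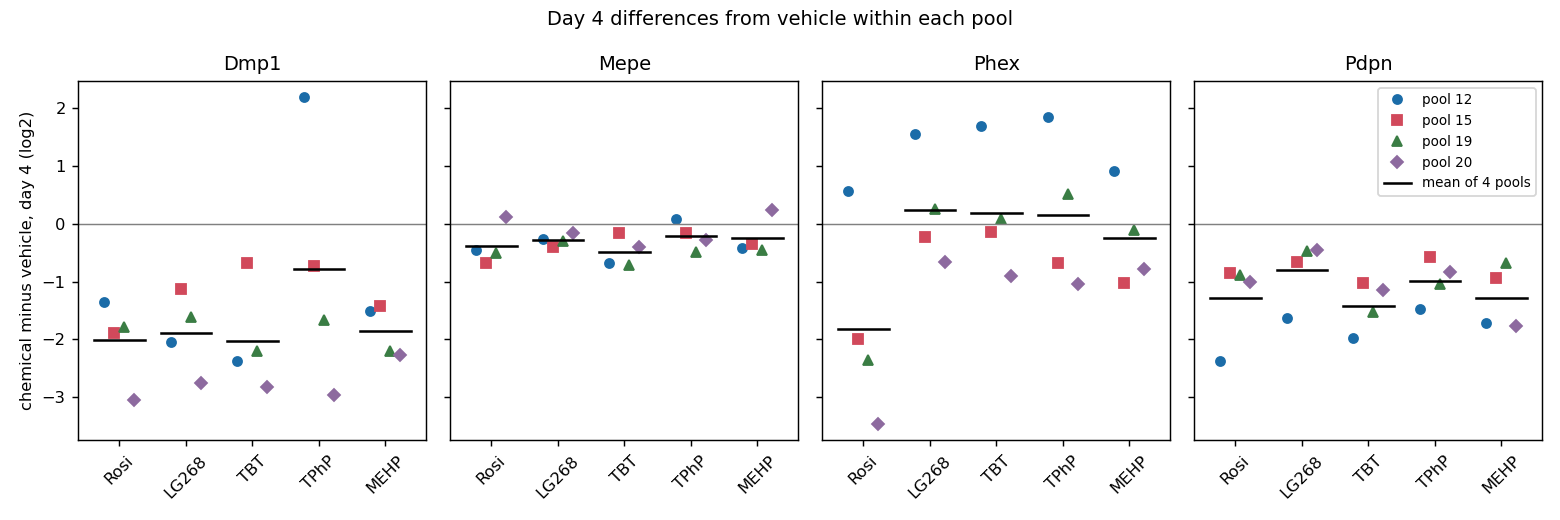
Log2 difference at day 4, chemical minus vehicle, within each pool (y axis, 1 panel per gene) for Rosi, LG268, TBT, TPhP and MEHP (x axis). Symbols mark the pools and bars the mean of 4. Pdpn lay below 0 in every pool with each of the 5 chemicals, Dmp1 in every pool except pool 12 with TPhP (2.19), and Phex was above 0 in pool 12, whose vehicle array stood apart, with every chemical.

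The 5 comparisons at day 4 share the 4 vehicle arrays, so their like signs are not independent of each other. The low Phex value of vehicle pool 12 raises each Phex difference. Without that array Phex differed from vehicle by -0.38 with LG268, -0.43 with TBT, -0.45 with TPhP and -0.87 with MEHP (adjusted p = 0.191 for MEHP), none of them called. Without it Pdpn was still called lower with Rosi (adjusted p = 0.00799), TBT (-1.11, adjusted p = 0.00843) and MEHP (-0.97, adjusted p = 0.017), and not with TPhP.

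**Figure D3:**
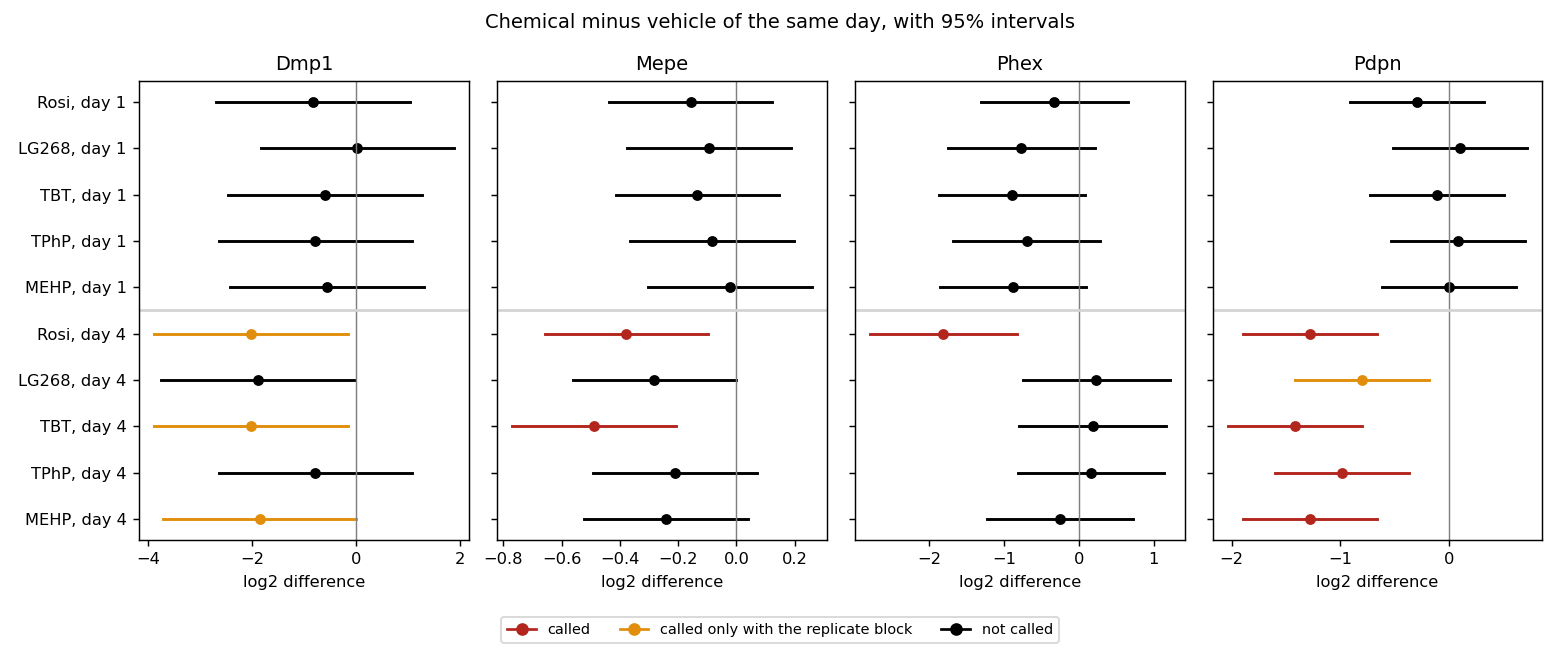
Log2 difference between each chemical and vehicle of the same day (x axis, with bars for the 95% interval of the fit on all 52 arrays) for the 4 genes, each panel with its own scale. The intervals use a spread pooled over all groups, so they can be too narrow for Pdpn at day 4. Red marks a call, orange a call only with the replicate block, black none. No interval at day 1 was called, and Pdpn at day 4 was called with Rosi, TBT, TPhP and MEHP and, with the block only, with LG268.

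Whether a chemical's difference was the same at day 1 and day 4 was tested as an interaction. None of the 4 genes was called for any chemical, where the share of tested genes was 30.0% for Rosi, 0.0805% for LG268, 1.77% for TBT, 4.49% for TPhP and 6.36% for MEHP. With the replicate block Pdpn was called for 4 chemicals. Its day 4 difference was below its day 1 difference by -0.98 with Rosi (adjusted p = 0.0822, block 0.0164), by -1.31 with TBT (0.103, block 0.0154), by -1.07 with TPhP (0.168, block 0.0363) and by -1.28 with MEHP (0.0683, block 0.00903). For LG268 the value was -0.91 (0.791, block 0.356). The block called 34.5%, 0.215%, 4.16%, 7.12% and 9.50% of tested genes for Rosi, LG268, TBT, TPhP and MEHP. The Phex interaction of Rosi was -1.48 ± 0.69 (adjusted p = 0.102), and -2.10 (adjusted p = 0.0101) without the pool 12 vehicle array.

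Day 4 was also set against day 1 within each chemical. Phex was higher at day 4 with LG268 by 2.28 ± 0.49 (adjusted p = 0.000603), with TBT by 2.36 (adjusted p = 0.00022), with TPhP by 2.14 (adjusted p = 0.000562) and with MEHP by 1.91 (adjusted p = 0.00181, but 0.0638 without pool 19 and 0.0507 without pool 20). In each of these the day 4 arrays lay above all day 1 arrays, as for 13.0%, 14.2%, 11.9% and 13.5% of tested genes with LG268, TBT, TPhP and MEHP. With Rosi Phex differed by -0.21 (95% interval -1.19 to 0.78, adjusted p = 0.77). Dmp1 was higher at day 4 with Rosi by 2.23 (adjusted p = 0.0439) and with TPhP by 3.41 (adjusted p = 0.00336). The Rosi call ended without its day 4 array of pool 15 (1.56, adjusted p = 0.188) and without pool 12 (adjusted p = 0.177), 15 (0.0596) or 20 (0.0996). The TPhP call ended without pool 12 (2.23, adjusted p = 0.147) and with only the arrays compared (adjusted p = 0.0572). Dmp1 was called with the replicate block alone with TBT (1.99, adjusted p = 0.103, block 0.018) and MEHP (2.13, adjusted p = 0.0714, block 0.00993), and with LG268 it was 1.51 (adjusted p = 0.285). Except with LG268, the day 1 means of Dmp1 were near background, so the size of these rises is uncertain. Pdpn differed between the days by -0.44 to -0.04 with the chemicals, and none was called. With vehicle its difference was 0.87, not called in the fit reported (adjusted p = 0.0516) but called with the replicate block (0.00664). The share of tested genes called was 46.4% for Rosi, 19.2% for LG268, 29.0% for TBT, 32.2% for TPhP and 33.7% for MEHP, and with the block 33.4% for TBT and 38.4% for MEHP.

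Phex was the member that separated Rosi from the other chemicals at day 4. All 16 arrays of the other 4 chemicals lay between 5.47 and 7.11, above every Rosi array, of which the highest was 5.13. Phex was higher than with Rosi by 2.05 ± 0.49 with LG268, or 4.13-fold (adjusted p = 0.000479). It was higher by 2.00 with TBT (3.99-fold, adjusted p = 0.000964), by 1.97 with TPhP (3.93-fold, adjusted p = 0.0019) and by 1.56 with MEHP (2.95-fold, adjusted p = 0.0143), each in 4 of 4 pools. The MEHP call ended without pool 19 (1.33, adjusted p = 0.112) and without pool 20 (1.18, adjusted p = 0.159). Groups without overlap in that direction made up 21.7%, 15.2%, 7.34% and 6.04% of tested genes with LG268, TBT, TPhP and MEHP. These 4 comparisons share the Rosi arrays and do not use the vehicle arrays. None of Dmp1, Mepe and Pdpn was called against Rosi, where the share of tested genes was 47.8% with LG268, 38.1% with TBT, 28.2% with TPhP and 26.1% with MEHP. The doses are equal for LG268 and Rosi, lower for TBT and not given for TPhP and MEHP. At day 1 no member differed from Rosi by the test (6.99%, 2.61%, 2.32% and 1.88% of tested genes with LG268, TBT, TPhP and MEHP). TBT against LG268 at day 4 gave no call (3.35% of tested genes), with Pdpn at -0.62 (95% interval -1.23 to -0.00, adjusted p = 0.352, lower in 4 of 4 pools).

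In the order of group means, Dmp1 was highest in day 4 vehicle, followed by the other day 4 groups from TPhP (7.09 ± 2.66) to TBT (5.86 ± 2.18), and all naive and day 1 groups came after these. No gap between neighbours in that order exceeded the larger of their SDs. Phex was highest in day 4 LG268 (6.63 ± 0.35), TBT (6.58 ± 0.24), TPhP (6.56 ± 0.37), vehicle (6.40 ± 1.28) and MEHP (6.15 ± 0.55). The next group was day 1 vehicle (5.12 ± 0.78), 1.03 lower and the only neighbour gap of Phex beyond the larger SD. Day 4 Rosi (4.59 ± 0.55) stood among the day 1 groups. Pdpn was highest in day 4 vehicle, 0.77 above day 1 LG268 (6.09 ± 0.18), a gap just over the larger SD of 0.74, and its 3 lowest groups were day 4 MEHP, Rosi and TBT. For Mepe no neighbours differed beyond their SD.

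Pools differed for Dmp1 at day 4 and for Phex before it. Dmp1 at day 4 ran from 7.88 to 9.76 in pool 15 (median 8.83 of 6 arrays), from 5.16 to 9.73 in pool 12 (median 6.10), from 4.37 to 6.57 in pool 19 (median 4.85) and from 4.60 to 7.65 in pool 20 (median 4.85). Pool 15 thus did not overlap with pools 19 and 20. Phex in naive and day 1 arrays had medians of 4.98 in pool 12 and 5.06 in pool 15, against 4.06 in pool 19 and 3.90 in pool 20 (7 arrays each).

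Markers of mature osteocytes were measured at low values. Sost (sclerostin) had group means of 3.82 to 4.11 and Fgf23 of 3.37 to 3.87, so that Sost lay close to the table median of 4.05 in every group and Fgf23 under it. Without a detection call, such values do not show absence, and Dmp1, itself an osteocyte marker, reached 9.76. Phex and Pdpn are also made by other cells: osteoblasts for Phex and stromal fibroblasts for Pdpn. Of 10 other osteocyte genes, all tested, 2 were called higher and 0 lower in day 4 vehicle against naive cells, close to the 17.4% of all tested genes called higher (11.5% were lower). The 2 were Gja1 (0.95 ± 0.21), the connexin 43 of gap junctions, and Tnfsf11 (0.68 ± 0.25), the osteoclast factor RANKL.

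Against day 4 vehicle, the other osteocyte genes were called higher in 0 and lower in 6 of 10 with Rosi, 1 with LG268, 3 with TBT, 2 with TPhP and 4 with MEHP. Over all tested genes 27.7%, 2.26%, 9.42%, 7.94% and 11.7% were lower and 21.3%, 4.21%, 10.6%, 11.0% and 12.1% higher in the same order of chemicals. Median differences of the 10 genes were -0.74, -0.05, -0.37, -0.34 and -0.56 in that order, against -0.05 to -0.02 over all tested genes. Mmp14, the membrane protease that osteocytes need for their dendrites, fell by 1.79 ± 0.18 with Rosi, 0.60 with TBT, 0.93 with TPhP and 1.06 with MEHP. Gja1 averaged 8.88 ± 0.26 with Rosi and 10.61 ± 0.54 with vehicle, a difference of -1.73 ± 0.21 (adjusted p = 2.85e-09). Without the pool 12 vehicle array the numbers lower were 6 with TBT, 4 with TPhP and 0 with LG268. The share of all tested genes in that refit is not given, so the change in these counts is not read as a result on osteocyte genes.

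The genes of phosphate and pyrophosphate handling include the enzymes that act beside Phospho1 and Enpp1, and 10 of 11 were tested. In day 4 vehicle 2 of the 10 were higher than in naive cells and 0 lower, close to the 17.4% of all tested genes called higher. They were Nt5e (1.47 ± 0.35), which makes adenosine at the cell surface, and Slc20a2 (1.04 ± 0.25), a phosphate importer. Against vehicle at day 4, 1 was higher with each chemical, and 5 were lower with Rosi, 1 with LG268, 3 with TBT, 4 with TPhP and 3 with MEHP, against the shares of all tested genes given for the osteocyte genes. Alpl, the alkaline phosphatase that degrades pyrophosphate, fell by 2.29 ± 0.27 with Rosi (8.19 ± 0.18 with Rosi and 10.48 ± 0.80 with vehicle, adjusted p = 2.67e-09), by 1.89 with TBT, 1.38 with TPhP and 2.29 with MEHP. Smpd3, a sphingomyelinase needed for bone mineral in mice, fell by 1.06 with LG268, 1.98 with TBT, 1.64 with TPhP and 2.13 with MEHP. Its day 4 value with Rosi is not printed, as 3 other genes of the list had smaller adjusted p there. In day 1 Rosi it was lower by -1.77 ± 0.32 (adjusted p = 0.000134). Ppa1, the cytosolic pyrophosphatase, was the gene that rose: by 2.58 ± 0.21 with Rosi (10.33 ± 0.29 with Rosi and 7.75 ± 0.23 with vehicle), 0.84 with TBT, 1.52 with TPhP and 1.39 with MEHP, whereas the 1 rise with LG268 was Slc20a1 (0.53 ± 0.17), another phosphate importer. Leaving out the pool 12 vehicle array, 5 of 10 were lower with MEHP, 2 were lower with LG268 with 0 higher, and 5 were higher in vehicle against naive cells. No share of all tested genes is given for that refit, so these counts are not set against one.

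Around FGF23, 7 of 9 listed genes were tested, and 2 were higher in day 4 vehicle than in naive cells (17.4% of all tested genes were): Fgfr1 (0.60 ± 0.13), its receptor, and Galnt3 (1.08 ± 0.38), the enzyme whose sugars protect FGF23 from cleavage. Against vehicle at day 4, 0 were higher, and 4 were lower with Rosi, 1 with LG268, 4 with TBT, 2 with TPhP and 3 with MEHP, against those same shares. Galnt3 fell with all 5 chemicals, by 1.80 ± 0.38 with Rosi, 1.26 with LG268, 1.62 with TBT, 1.21 with TPhP and 1.63 with MEHP. Vdr, the vitamin D receptor, fell by 1.74 ± 0.22 with Rosi, 1.07 with TBT, 0.85 with TPhP and 1.02 with MEHP. In day 1 Rosi Vdr was already lower, by -0.70 ± 0.22 (adjusted p = 0.0457). Median differences of the list at day 4 were -0.63, -0.25, -0.47, -0.35 and -0.21 with Rosi, LG268, TBT, TPhP and MEHP.

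Of the mineralising matrix genes, 9 of 13 were tested, and 4 were higher in day 4 vehicle than in naive cells with 0 lower (17.4% and 11.5% of all tested genes). Ibsp, bone sialoprotein, which lies between Dmp1 and Mepe on chromosome 5, averaged 12.26 ± 0.31 in day 4 vehicle and 9.29 ± 1.15 in naive cells (2.97 ± 0.62, adjusted p = 0.00027). Ifitm5, an osteoblast membrane protein, had 6.32 ± 1.05 in day 4 vehicle and 4.04 ± 0.34 in naive cells (2.28 ± 0.31), and Omd, osteomodulin, was higher by 2.55. Against vehicle at day 4 none was higher, and 6 were lower with Rosi, 1 with LG268, 5 with TBT, 5 with TPhP and 6 with MEHP, against the same shares of all genes. The collagen I chain Col1a1 fell by 1.36 ± 0.18 with Rosi, 0.97 with TBT, 1.10 with TPhP and 1.39 with MEHP. Ifitm5 fell by 1.72 with LG268, 1.85 with TBT, 1.47 with TPhP and 1.73 with MEHP. With Rosi it was not among the 3 genes of the list with the smallest adjusted p, so that value is not printed. Its difference with Rosi was lower at day 4 than at day 1 by -1.68 ± 0.44 (interaction, adjusted p = 0.00308). The list's medians were -1.44, -0.16, -0.76, -0.88 and -1.08 with Rosi, LG268, TBT, TPhP and MEHP.

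Among osteoblast regulators 8 of 11 were tested. In day 4 vehicle against naive cells 2 were higher (Dlx3, 0.98 ± 0.23, a homeobox factor, and Pth1r, 0.95 ± 0.30, the receptor of parathyroid hormone) and 1 lower (Mef2c, -0.66 ± 0.17), where 17.4% and 11.5% of all tested genes were. Against vehicle at day 4, 7 of 8 were lower and 1 higher with Rosi, and 2 were lower with LG268, 5 with TBT, 4 with TPhP and 6 with MEHP, with 0 higher. The shares of all tested genes are those given for the osteocyte genes. Pth1r averaged 6.10 ± 0.29 with Rosi and 8.65 ± 0.81 with vehicle (-2.55 ± 0.30, adjusted p = 2.09e-09). It fell by 1.32 with LG268, 1.84 with TBT, 1.54 with TPhP and 2.14 with MEHP. Sp7, the osteoblast factor osterix, fell by 2.09 with TBT and 1.62 with TPhP, and by 1.58 in day 1 Rosi. Its day 4 values with Rosi and MEHP are not printed, as 3 other genes of the list had smaller adjusted p there. When the pool 12 vehicle array was left out, 6 of 8 were lower with LG268, and without the pool 12 TPhP array 6 were lower with TPhP. The calls over all tested genes can change in such refits too, and their shares are not given here.

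Podoplanin acts through proteins that link it to actin or bind it outside the cell, and 8 of 9 such partners were tested. None was called in day 4 vehicle against naive cells. Against vehicle at day 4, 5 were lower with Rosi, 1 with LG268, 4 with TBT, 3 with TPhP and 1 with MEHP (5 with the replicate block), and 1 was higher with Rosi. Over all tested genes 27.7%, 2.26%, 9.42%, 7.94% and 11.7% (14.7% with the block) were lower, so that 1 of 8 with MEHP is near the share of all genes. Msn, moesin, which ties the tail of podoplanin to actin, fell by 0.72 ± 0.13 with Rosi, 0.44 with TBT and 0.38 with TPhP. The tetraspanin Cd9, which binds podoplanin, fell by 1.00 with Rosi, 0.55 with TBT, 0.79 with TPhP and 0.95 with MEHP. Cd44, a hyaluronan receptor that is also in the osteocyte list, fell by 0.89 with Rosi, 0.58 with LG268 and 0.73 with TBT. In a fit lacking the pool 12 vehicle array 2 were lower with TBT and 2 with MEHP, for which no share of all tested genes is given.

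**Figure D4:**
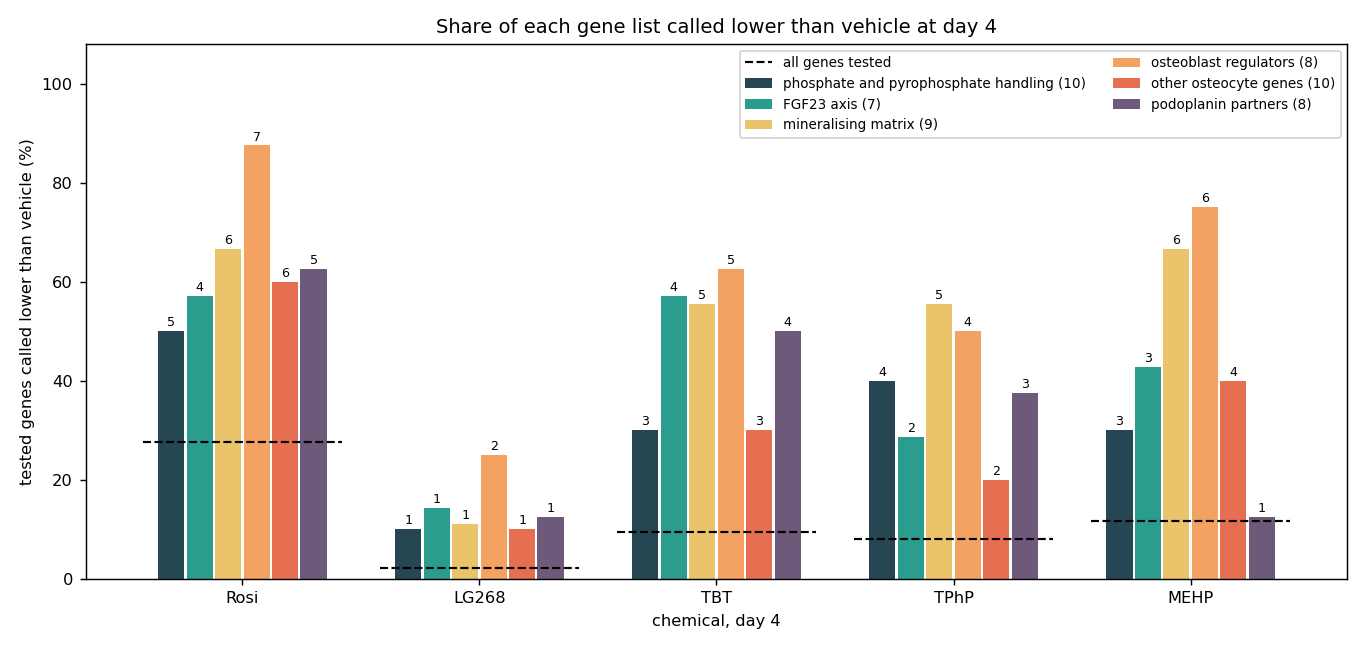
Percent of the tested genes of each of 6 lists that were called lower than vehicle at day 4 (y axis, bars from 0, with the counts on the bars) for Rosi, LG268, TBT, TPhP and MEHP. Dashed lines give the share of all tested genes called lower, 27.7% with Rosi, 2.26% with LG268, 9.42% with TBT, 7.94% with TPhP and 11.7% with MEHP.

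Other genes of these lists were also higher with the other chemicals than with Rosi at day 4. Gja1 was higher than with Rosi by 2.09 ± 0.21 with LG268, 1.46 with TBT, 1.34 with TPhP and 1.04 with MEHP. Mmp14 was higher by 1.83 ± 0.18, 1.19, 0.86 and 0.73 with LG268, TBT, TPhP and MEHP, and Vdr by 1.35, 0.67, 0.89 and 0.72. Of the other osteocyte genes 6, 4, 5 and 4 of 10 were called higher than with Rosi, and 0 lower, where 26.3%, 20.1%, 15.1% and 12.8% of all tested genes were higher. Ppa1 was lower than with Rosi by 2.79 log2 units with LG268, 1.74 with TBT, 1.06 with TPhP and 1.19 with MEHP.

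Genes most like each member over all 52 arrays were listed by Pearson correlation, a description in which arrays share pools and groups. For Dmp1 they were Car12 (0.93), a membrane carbonic anhydrase, Thbs4 (0.83) and Sema3d (0.81). Car12 had 0.90 within groups, so that its arrays followed Dmp1 from pool to pool. Naive and day 1 group means of Car12 (3.47 to 3.69), Thbs4 (3.58 to 3.88) and Sema3d (3.10 to 3.86) were near background. Rank (Spearman) correlations with Dmp1 were lower, at 0.72, 0.58 and 0.65. For Phex they were Grem1 (0.89), the BMP antagonist gremlin, Gdpd2 (0.88), a phosphodiesterase, and Clu (0.87), clusterin. Grem1 had group means at day 4 of 7.04 with Rosi, 9.48 with LG268, 9.17 with TBT, 8.73 with TPhP, 8.73 with MEHP and 8.76 with vehicle, low with Rosi as Phex was. For Pdpn they were Fbxl2 (0.85), an F-box protein, Plin3 (0.82), a lipid droplet protein, and Pdgfc (0.82), a growth factor. Fbxl2 fell at day 4 with all 5 chemicals, by 1.38 with Rosi, 1.00 with LG268, 1.24 with TBT, 0.98 with TPhP and 1.29 with MEHP. For Mepe the closest were Dmp1 (0.63), Unc13a (0.63) and Abraxas2 (0.57), set against Mepe values that are themselves near background.

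Among the members, Dmp1 correlated with Phex at 0.56 over all arrays and at 0.14 within groups, and with Pdpn at 0.46 and 0.66. Phex and Pdpn had -0.05 over all arrays and -0.22 within groups. Within groups, then, Dmp1 followed Pdpn more closely than Phex over these arrays.

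Markers of other cell types were called in the same comparisons. Over all tested genes 21.3%, 4.21%, 10.6%, 11.0% and 12.1% were higher and 27.7%, 2.26%, 9.42%, 7.94% and 11.7% lower than vehicle at day 4 with Rosi, LG268, TBT, TPhP and MEHP. Of 6 adipocyte markers, 6 were called higher than vehicle at day 4 with Rosi, TBT, TPhP and MEHP and 4 with LG268, with 0 lower. Their mean per array was 11.2 to 11.4 with Rosi and 7.64 to 9.24 with vehicle. Of 6 macrophage markers, 6 were lower with Rosi (means 9.62 to 10.8, against 11.1 to 11.4 with vehicle), 0 with LG268, 1 with TBT, 2 with TPhP and 1 with MEHP. All 6 were higher with each of the other chemicals than with Rosi, as Phex was. Of all tested genes 26.3%, 20.1%, 15.1% and 12.8% were higher than with Rosi with LG268, TBT, TPhP and MEHP. Of 6 osteoclast markers tested, 4 were lower with Rosi, 3 with LG268, 5 with TBT, 4 with TPhP and 4 with MEHP. All 6 were higher in day 4 vehicle than in naive cells, where 17.4% of all tested genes were. Of 8 stromal markers 5 were lower with Rosi and 1 with TPhP, 3 were higher with LG268 and 2 with TBT, and none was called with MEHP. Of 5 smooth muscle markers 4 were lower with each of Rosi, TBT, TPhP and MEHP and 0 with LG268. Chondrocyte markers (3 tested) were lower in 3 with Rosi, 1 with LG268 (1 higher), and 2 with each of TBT, TPhP and MEHP. Means per array over all 5 chondrocyte markers were 4.30 to 4.58 with Rosi and 4.48 to 4.64 with MEHP, without overlap with 4.80 to 5.67 with vehicle. Of 5 B lineage markers 3 were lower in day 4 vehicle (means 5.79 to 6.02) than in naive cells (6.93 to 7.53), where 11.5% of all tested genes were lower. Against vehicle at day 4, 1 was lower with Rosi, 1 higher with LG268 and 3 higher with TBT. Of 2 erythroid markers 1 was higher with TBT. Among the lymphatic and blood endothelial markers, which bear on Pdpn, 1 of 4 tested was lower with Rosi, near the share of all genes, and 1 was higher with LG268, 3 with TBT and 1 with MEHP. Prox1, which defines lymphatic endothelium, was under 4.05 on all 52 arrays. The part of these cell types in the results was not tested.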

How the data were processed

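The authors deposited a table of log2 values (41345 probe sets). The submitters' processing notes name oligo and R 3.3.1. How background was corrected and arrays normalized is not given in the sources used here. Of these probe sets 23521 were annotated to 1 gene, 1814 to several and 16010 to none, and the highest-mean probe set of each of 22180 genes was used. Array medians ran from 3.97 to 4.15, and precision is limited by 4 arrays per group. A gene was tested if at least 4 arrays exceeded the table median (4.05), which set aside 7269 genes. limma was fitted to group means of all 52 arrays (39 residual and 3.45 prior degrees of freedom), and SEs pool the spread of all groups. P-values were Benjamini-Hochberg adjusted within each of 32 comparisons.

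The numbers 12, 15, 19 and 20 come from the titles, and per the labels' protocols each pool of animals was an experiment. After removal of group means, the best match of 43 of 52 arrays was their own pool (median correlation 0.219), and 41 of 52 pairs of the same pool exceeded 0.1. The pool was therefore also fitted as a replicate block (36 residual degrees of freedom).

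The members, the gene lists and the tests were chosen with earlier results of these data known. The genes named are the members, up to 3 genes of each pathway list and comparison with the smallest adjusted p under 0.05 (with their values in other comparisons), the 3 genes most correlated with each member, leaving out gene models that lack a regular symbol, and marker genes beside a result they move with. Grem1, Fbxl2, Ibsp and other examples described in more detail were picked among these after their values were seen. Alternatives were the block, only the arrays of the groups compared, the mean of probe sets, cyclic loess between arrays, no filter, a filter at the upper quartile of the table (6.34), eBayes with an intensity trend, each pool left out and 3 single arrays left out. The fit was tested on simulated data. All 6 listed symbols were looked up in RefSeq's promoter table; 4 were printed. Statistics ran in R 4.3.3 with limma (3.58.1) and the data.table package, version 1.17.8; matplotlib 3.10.9, numpy 2.4.6 and pandas 2.3.3 ran in Python 3.11.15.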

Additional observations from a re-analysis of the deposited data

Results flagged for a closer look

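In 6 of the 52 sets of 4 arrays examined (4 genes in 13 groups), 1 array lay far from the other 3 for its group's range; chance gives about 1 in 20 such sets. For Dmp1 the array of pool 15 stood high at day 1 with LG268 (5.17), at day 4 with LG268 (8.63) and at day 4 with TBT (9.09). Pdpn of pool 15 stood high at day 4 with Rosi (6.25). Mepe of pool 20 was low in day 4 vehicle (3.90), near background. Phex of pool 12 was low at day 4 with LG268 (6.12), although that value is above every Phex value with Rosi. The causes were not tested.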

How the results depend on the processing

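Counts of members called stayed within 1.5 times the reported count in 335 cases, taken over comparisons and alternatives, and moved further in 40. With the replicate block the number went to 3 for day 4 against day 1 vehicle (1 without it), 1 for LG268 at day 4 (0), 2 for MEHP at day 4 (1), 2 for day 4 against day 1 with TBT and with MEHP (1 each), and 1 for the interactions of Rosi, TBT, TPhP and MEHP (0 each). The block changed no call of a member beyond those printed in the report. Fitting only the arrays of the groups compared gave 1 for day 4 vehicle against naive cells (4), 0 for TBT (2), 0 for TPhP (1) and 0 for MEHP (1) against vehicle at day 4, and 1 for the days of TPhP (2). This fit has fewer arrays, and its SEs rest on the spread of the compared groups alone. Each member call that ended in it had a larger SE. At day 4 the SE of Pdpn rose from 0.31 to 0.44 with MEHP and to 0.40 with TBT. For Phex in day 4 vehicle against naive cells it rose from 0.49 to 0.68. Group SDs of Pdpn were 0.16 to 0.33 at day 1 and 0.32 to 0.76 at day 4. SEs pooled over all groups can therefore be too small for Pdpn at day 4. The stricter filter gave 2 for day 4 against day 1 vehicle, 1 for TBT at day 4, where Mepe was not tested, and 1 for the interaction of MEHP; cyclic loess gave 2 for day 4 against day 1 vehicle, and no filter gave 0 for the days of Rosi.

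With a pool or 1 of 3 single arrays left out, the number of members called varied. Shares of all tested genes in these refits are not given here. The number ran from 2 to 3 for day 4 vehicle against naive cells and 1 to 2 for day 4 against day 1 vehicle. Against vehicle at day 4 it ran from 2 to 3 for Rosi, 1 to 3 for TBT, 0 to 1 for TPhP and 1 to 2 for MEHP. It ran from 0 to 1 for the interaction of Rosi, 0 to 1 for the days of Rosi, 1 to 2 for those of TPhP, 0 to 1 for those of MEHP, and 0 to 1 for MEHP against Rosi at day 4. Without pool 19 or pool 20 the last call, of Phex, was lost.

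Some uncalled differences changed sign when arrays were left out. Phex at day 4 ran from -0.38 to 0.53 with LG268, -0.43 to 0.54 with TBT, -0.45 to 0.56 with TPhP and -0.87 to 0.0048 with MEHP, and from -0.19 to 0.32 in day 1 vehicle against naive cells. At day 1 the ranges were -0.0613 to 0.10 for Dmp1 with LG268, -0.18 to 0.033 for Mepe with LG268, -0.11 to 0.054 for Mepe with MEHP, -0.026 to 0.16 for Pdpn with TPhP and -0.0612 to 0.023 for Pdpn with MEHP (0.0055 with cyclic loess). The cause was not tested.

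Over all genes, the block moved the count of calls by over 1.5 times for LG268 (68 against 36 without it), TBT (171 against 81), TPhP (71 against 32) and MEHP (176 against 78) at day 1, LG268 at day 4 (1590 against 965), the interactions of LG268 (32 against 12), TBT (621 against 264) and TPhP (1062 against 669), TBT and MEHP against Rosi at day 1 (613 against 389, 478 against 280) and TBT against LG268 at day 4 (751 against 499). Only the arrays compared gave 2093 for day 4 vehicle against naive cells (4308 in the fit reported), 568 for day 4 against day 1 vehicle (1922), and 369, 1676, 816 and 1048 for LG268, TBT, TPhP and MEHP at day 4 (965, 2990, 2818 and 3548). It gave 174 and 190 for TBT and MEHP at day 1, 275 and 376 for the interactions of TPhP and MEHP (669 and 949), 3153 for the days of TPhP (4803), 676 and 630 for TBT and MEHP against Rosi at day 1, and 704 and 354 for TPhP and MEHP against Rosi at day 4 (4207 and 3897). Signal over background limits Mepe throughout, much of Dmp1 before day 4 and some Phex arrays.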

Other observations

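The probe set that carries both Phospho1 and Zfp652 cannot be assigned to either gene. Its log2 values averaged 8.17 ± 0.38 with Rosi, 6.47 ± 0.69 with LG268, 7.45 ± 0.48 with TBT, 7.36 ± 0.41 with TPhP, 7.24 ± 0.16 with MEHP and 7.90 ± 0.83 with vehicle at day 4 (SD, n = 4 each). In naive cells it averaged 6.25 ± 0.28, and in day 1 vehicle 6.07 ± 0.45.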
